A study of Homo sapiens with 2 samples.

Results

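The transcripts described here are 10 genes whose RNA is the product, or the carrier of one, and not only a message: MALAT1 and NEAT1, which are long noncoding RNAs of the nucleus, GAS5, SNHG1, SNHG12 and DANCR, which host small nucleolar RNAs (snoRNAs), and DLEU2, MIR17HG, MIR155HG and VMP1, which host microRNAs. They were chosen by symbol, through the gene names that the annotation of the Affymetrix HG-U133 Plus 2.0 array gives to each probe set, a group of short probes read as 1 value. The arrays covered 19775 genes with a probe set of their own, and 6 of the 10 genes were among them, with 23 of the 41091 probe sets paired with a single gene. Another 25 were paired with 1 of the genes and also with the small RNAs embedded in it or with a related gene, and for NEAT1, SNHG1, SNHG12 and MIR155HG these were all there was. Such a probe set cannot be given to 1 gene alone, so its values are given under all its symbols.

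The cells were SU-DHL-1, a T-cell lymphoma line of the anaplastic large cell type (ALCL) that expresses NPM1-ALK. They had been electroporated with an siRNA to silence HLX, a homeobox gene of the NKL subclass (siHLX), or with a commercial control siRNA without a human target (siCTR), and there was 1 array per siRNA. Both groups were the same cell line, and the siRNA is the only difference stated for them. The sources used here do not say whether both samples were cultured, labelled and scanned together. A difference between the arrays thus cannot be assigned to the siRNA alone. The sequence of the HLX siRNA was not given in these sources, and with 1 array each no difference has a replicate check or a test. The values below are log2 intensities, differences are siHLX minus siCTR, and n = 1 array throughout. Precision is limited by the number of arrays, and in a bulk sample fewer cells of a type cannot be told apart from less RNA per cell.

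HLX, the target, read 7.70 on the siHLX array and 8.15 on the siCTR array, a difference of -0.45, so the HLX transcript was still present. Among the 7912 single-gene probe sets at levels from 6 to 8, the central range of differences ran from -0.52 to 0.53. The HLX difference lay inside that range, so these arrays do not by themselves show that HLX was lowered. Of the ALCL and T-cell markers, TNFRSF8 (CD30), ALK, IL2RA and BATF3 read between 9.79 and 12.48 on the 2 arrays. CD3E (5.68 with siHLX, 5.87 with siCTR) and CD4 (5.63 with siHLX, 5.96 with siCTR) were dim. CD2 was below the level threshold of 4.865, the median over all probe sets. Of the markers of other cell types, 2 of 3 B-cell genes, 1 of 4 myeloid genes and 2 of 4 genes of epithelium and stroma passed the threshold, while the B-cell marker MS4A1 (CD20) did not. Their summed levels were 7.33 with siHLX and 7.23 with siCTR for the B-cell genes, 6.89 with siHLX and 6.56 with siCTR for the myeloid genes, and 7.91 with siHLX and 8.10 with siCTR for those of epithelium and stroma (log2). Poly-A controls added before labelling were lower on the siHLX array by a mean of -0.29 (SD 0.18, 24 probe sets), whereas the controls added at hybridisation differed by -0.02 (SD 0.08, 18 probe sets). The 3' minus 5' contrast of control transcripts, which reflects degradation, was -0.04 apart between the arrays in ACTB and -0.06 in GAPDH. The median difference of all genes was -0.01, and it was 0.28 once the arrays were scaled to equal poly-A controls, so a difference is read against the bulk of genes. The part of these values in the differences below was not tested.

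Noncoding RNAs of these classes act in different ways. MALAT1 lies in nuclear speckles, the stores of splicing factors, and NEAT1 is the scaffold on which paraspeckles assemble. The snoRNA hosts are spliced, their introns release the snoRNAs that guide modification of ribosomal RNA, and the exons that remain are mostly short-lived. GAS5 is known for its increase in growth-arrested cells, and SNHG1, SNHG12 and DANCR for high levels in tumours. The microRNA hosts carry hairpins that are cut out and trimmed to short RNAs, which repress messages that match their seed, bases 2 to 8 of the microRNA.

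The microRNAs carried by the 4 hosts are shown because the array reads the host RNA and not the microRNA. The target genes described further on were not matched to these seeds. Sequences are from RefSeq (GRCh38.p14), 5' to 3', with the seed in capitals.
hsa-miR-21-5p (VMP1, chr17:59841273-59841294, plus strand): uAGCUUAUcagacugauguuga
hsa-miR-155-5p (MIR155HG, chr21:25573983-25574006, plus strand): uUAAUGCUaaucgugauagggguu
hsa-miR-15a-5p (DLEU2, chr13:50049167-50049188, minus strand): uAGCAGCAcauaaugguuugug
hsa-miR-16-5p (DLEU2, chr13:50049027-50049048, minus strand): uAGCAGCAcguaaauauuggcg
hsa-miR-17-5p (MIR17HG, chr13:91350618-91350640, plus strand): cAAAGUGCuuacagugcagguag
hsa-miR-20a-5p (MIR17HG, chr13:91351072-91351094, plus strand): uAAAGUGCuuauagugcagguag
hsa-miR-18a-5p (MIR17HG, chr13:91350756-91350778, plus strand): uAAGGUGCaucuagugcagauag
hsa-miR-19a-3p (MIR17HG, chr13:91350939-91350961, plus strand): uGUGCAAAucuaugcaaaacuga
hsa-miR-19b-3p (MIR17HG, chr13:91351245-91351267, plus strand): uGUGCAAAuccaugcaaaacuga
hsa-miR-92a-3p (MIR17HG, chr13:91351361-91351382, plus strand): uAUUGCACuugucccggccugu
All 10 lie inside the annotated bounds of their host gene. miR-15a and miR-16 share 1 seed, as do miR-17 and miR-20a, and miR-19a and miR-19b, so the 10 microRNAs have 7 different seeds. miR-16-5p is also encoded on chromosome 3, and miR-19b-3p and miR-92a-3p on chromosome X, outside these hosts.

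MALAT1 was higher on the siHLX array in all 12 of its probe sets. Its brightest probe set, 1558678_s_at, read 10.85 with siHLX and 10.34 with siCTR, a difference of 0.51 or 1.42-fold. The next, 224567_x_at, read 10.85 with siHLX and 10.19 with siCTR, and 226675_s_at read 10.10 with siHLX and 9.33 with siCTR. At these levels the arrays hardly differed for most genes: among the 2520 single-gene probe sets at a level of 10 or above, the central 95% of differences lay between -0.24 and 0.23.

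The only MALAT1 probe set without the suffixes _s_at or _x_at, which mark probe sets that share probes between transcripts, was 224559_at. It read 7.86 with siHLX and 6.79 with siCTR, a difference of 1.07 or 2.10-fold, the largest for any of the 10 genes. 228582_x_at followed with 7.66 with siHLX and 6.77 with siCTR, or 1.85-fold. The remaining probe sets of MALAT1 at levels from 7 to 10 differed by 0.61 (224568_x_at, 8.90 with siHLX and 8.29 with siCTR), 0.52 (223577_x_at, 7.84 with siHLX and 7.32 with siCTR), 0.49 (231735_s_at, 8.23 with siHLX and 7.74 with siCTR), 0.46 (223940_x_at, 9.11 with siHLX and 8.65 with siCTR) and 0.22 (224558_s_at, 9.13 with siHLX and 8.91 with siCTR). Below a level of 7, the difference was 0.41 for 227510_x_at (6.44 with siHLX and 6.03 with siCTR) and 0.04 for 223578_x_at (6.32 with siHLX and 6.28 with siCTR), the smallest of the 12.

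Over the 12 probe sets of MALAT1 the mean difference was 0.55 (SD 0.28) and the median 0.515. These are repeat readings of the same 2 RNA samples, so the SD is technical, and their agreement says nothing on how another culture would read. The 4 _s_at probe sets averaged 0.50 and the 7 _x_at probe sets 0.51. For 2 probe sets, 224567_x_at and 226675_s_at, 0 of the 1393 and 0 of the 2313 probe sets of other genes within 0.5 log2 units of their level lay as far up, and for 224559_at 2 of 3908 did. Near 223578_x_at, in contrast, 45.8% did.

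**Figure D1:**
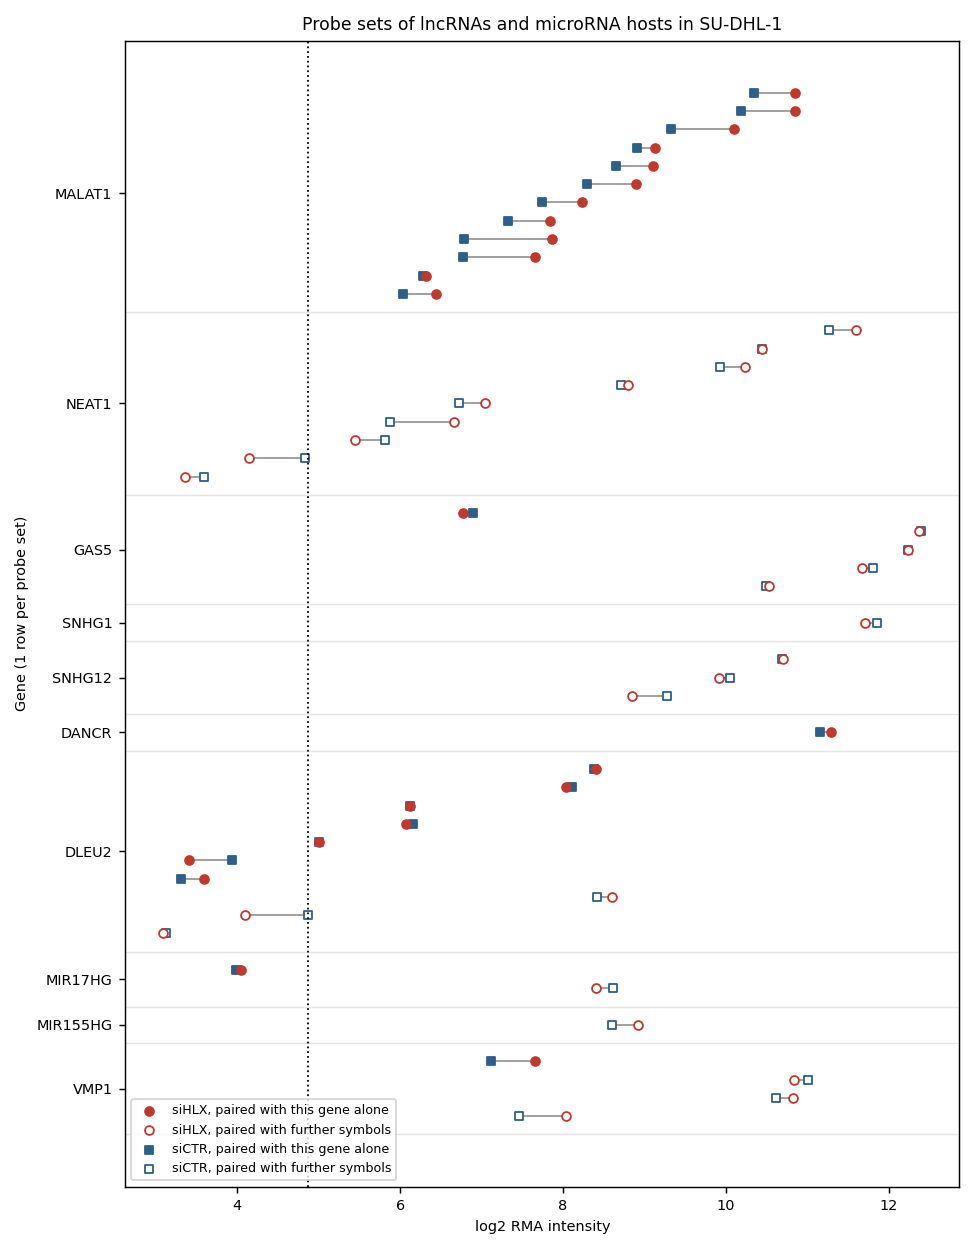
Log2 RMA intensity (x axis) of the 48 probe sets of the 10 genes (y axis, 1 row per probe set) on the siHLX array (red circles) and the siCTR array (blue squares); filled symbols are probe sets paired with that gene alone, open symbols those paired with further symbols, and the dotted line is the level threshold of 4.865. All 12 MALAT1 rows have siHLX to the right of siCTR, while the rows of GAS5 and DLEU2 above the threshold lie close together.

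In the whole set, 15 of the 20 single-gene probe sets above the threshold were higher with siHLX, 3 were lower and 2 were equal. Over all 22453 such probe sets of the arrays, 47.5% were higher and 49.9% lower. As 12 of the 15 were those of MALAT1, the count mostly repeats 1 gene: without MALAT1, 3 were higher and 3 lower. Only 224559_at passed 2-fold, 1 of 20, where 0.811% of all single-gene probe sets above the threshold did so in either direction. A limit of 1.5-fold was passed by 5 of the 20, all of MALAT1, and by 6.01% of all such probe sets. Read by 1 probe set per gene, 4 of the 5 genes with a probe set of their own above the threshold were higher, with a median of 0.13, beside -0.01 over all 12135 genes, of which 47.4% were higher and 50.1% lower. DLEU2, 1 of the 4 at 0.03, read -0.03 by the mean of its probe sets and -0.09 without _s_at and _x_at probe sets, which leaves 3 of 5 higher.

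Genes read by many probe sets gave a frame for MALAT1, a comparison that was chosen after its values had been seen. Of the 439 genes with at least 5 single-gene probe sets above the threshold, MALAT1 had the highest median difference, ahead of CA12 (0.45) and RAB27A (0.42), and the medians ran down to -0.48. In 18 of the 439 genes all probe sets were higher and in 19 all were lower. Among the 8 genes with at least 10 probe sets, MALAT1 was the only one with all of them on the same side. HFE followed with a median of 0.16 and 10 of 14 probe sets higher, and CD44 was at the low end with -0.09 and 3 of 10 higher. The rank held with the other scalings and with the stricter level threshold, but with no level threshold, which lets dim readings in, MALAT1 ranked 5.

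**Figure D2:**
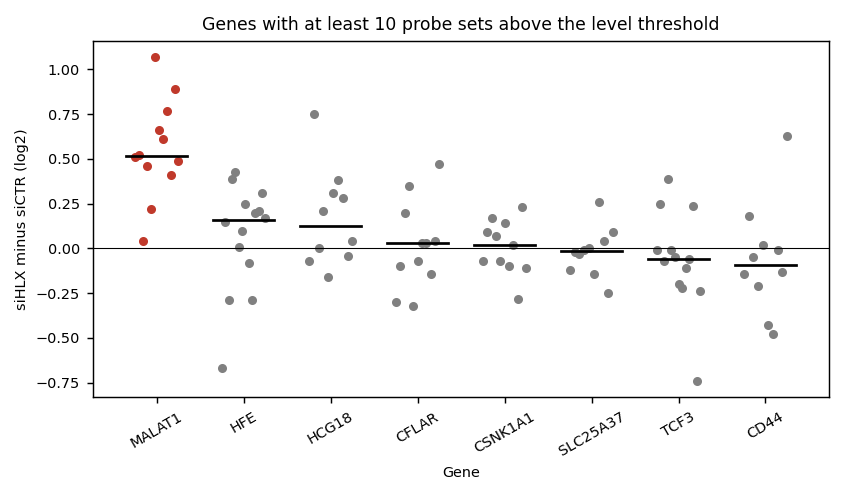
The siHLX minus siCTR difference (y axis, log2) for every probe set above the level threshold (points) of the 8 genes with at least 10 such probe sets (x axis), with the median of each gene as a black bar. The points of MALAT1 (red) lie between 0.04 and 1.07, and those of the other 7 genes (grey) fall on both sides of 0.

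NEAT1, which neighbours MALAT1 on chromosome 11, was read only by probe sets paired with both NEAT1 and MIR612, a microRNA gene inside it. Of the 7 of these above the threshold, 5 were higher with siHLX, 1 was equal and 1 lower, with a median of 0.30 (mean 0.21, SD 0.36). The brightest, 224565_at, read 11.60 with siHLX and 11.27 with siCTR, a difference of 0.33, and 0.83% of the probe sets near its level lay as far up. 224566_at, in contrast, read 10.44 on both arrays.

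The other NEAT1/MIR612 probe sets were as mixed. 234989_at read 10.23 with siHLX and 9.93 with siCTR, 225239_at 8.80 with siHLX and 8.71 with siCTR, and 214657_s_at 7.04 with siHLX and 6.72 with siCTR. 227062_at had the largest difference, 0.79, with 6.66 with siHLX and 5.87 with siCTR. 239269_at was lower, with 5.44 with siHLX and 5.82 with siCTR. The 2 probe sets below the threshold were lower as well, by -0.68 (238320_at) and -0.23 (220983_s_at). The readings of NEAT1/MIR612 therefore did not all lie on the same side of 0. Those below 0 were at levels of 5.63, 4.49 and 3.475, dimmer than any MALAT1 probe set, of which the dimmest lay at 6.235. At levels of 8.755 and above, NEAT1/MIR612 read from 0.0 to 0.33 and MALAT1 from 0.22 to 0.77.

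Neighbouring genes of this stretch of chromosome 11 had small or dim differences. FRMD8, 9.27 kb from NEAT1 in RefSeq (GRCh38.p14), read -0.04 on its brightest probe set, at 8.79 with siHLX and 8.83 with siCTR. LTBP3, a latent TGFbeta binding protein gene 32.0 kb from MALAT1, was lower on all 3 probe sets, by -0.14, -1.07 and -0.16, all at levels under 6. SLC25A45 read 0.52 on its only probe set above the threshold, at 5.68 with siHLX and 5.16 with siCTR. The genes beside MALAT1 and NEAT1 thus lay on both sides of 0.

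Genes of nuclear speckle proteins read slightly lower on their brightest probe sets, but not on all. Of 14 nuclear speckle proteins above the threshold, 1 was higher and 13 were lower with siHLX, with a median of -0.10 beside -0.01 for all genes, and 0 passed 2-fold, as 0.841% of all genes did. LUC7L3, a splicing factor, was the lowest at -0.27 on its brightest probe set, though its 6 probe sets ran up to 0.34, and SRRM2, a core protein of the speckles, was the only one higher at 0.04. Other probe sets of SON, SRSF1, SRSF3 and THRAP3, at -0.20, -0.11, -0.09 and -0.15 on the brightest, reached 0.38, 0.47, 0.38 and 0.50, and without _s_at and _x_at probe sets the median was -0.03. Scaled to equal poly-A controls the speckle median lay at 0.19, below the 0.28 of all genes. The paraspeckle proteins had a median of -0.05, with 6 of 15 higher and 9 lower, where 50.1% of all genes were lower. NONO, an essential one, was at 0.17, and RBM14 was at -0.24, with other probe sets of both on the opposite side of 0.

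The snoRNA hosts were close to level. GAS5 read 6.77 with siHLX and 6.89 with siCTR on its own probe set, 1560402_at, a difference of -0.12, and 32.9% of the probe sets near that level lay as far down. The 4 probe sets paired with GAS5 and its snoRNAs, among them SNORD44 and SNORD76, were bright and steady. They read 12.37 with siHLX and 12.40 with siCTR (224741_x_at), 12.23 with siHLX and 12.24 with siCTR (224841_x_at), 11.67 with siHLX and 11.80 with siCTR (227517_s_at), and 10.53 with siHLX and 10.49 with siCTR (228238_at). Their mean difference was -0.03 (SD 0.07). All 5 readings of GAS5 thus lay between -0.13 and 0.04.

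DANCR, on chromosome 4, had a single probe set of its own, 224870_at, which read 11.29 with siHLX and 11.16 with siCTR. The difference of 0.13 was small, and 9.63% of the probe sets near that level lay as far up. The only probe set of SNHG1, 224610_at, paired with 8 of its snoRNAs such as SNORD22 and SNORD31, read 11.71 with siHLX and 11.86 with siCTR, a difference of -0.15, and 9.29% lay as far down. With equal poly-A controls GAS5 and SNHG1 lay above 0, at 0.17 and 0.14, and below the median of all genes.

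The 3 probe sets of SNHG12, paired with SNORA16A, SNORA44 and SNORA61 as well, disagreed in size. 223773_s_at read 10.70 with siHLX and 10.69 with siCTR, and 228990_at 9.91 with siHLX and 10.05 with siCTR. 223774_at was lower, with 8.85 with siHLX and 9.28 with siCTR, and for its difference of -0.43 only 0.911% of the probe sets near its level lay as far down. Of all 10 snoRNA host probe sets, 3 were higher and 7 lower, with a median of -0.075.

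The other snoRNA hosts, of which 7 of 25 had a probe set of their own above the threshold, gave 1 higher, 5 lower and 1 equal, with a median of -0.09. SNHG32 was at 0.14, with 12.51 with siHLX and 12.37 with siCTR. SNHG4 was at -0.72 but dim, with 4.69 with siHLX and 5.41 with siCTR. The proteins that bind snoRNAs had 3 of 14 genes higher and 11 lower, with a median of -0.06. Of all genes, 47.4% were higher and 50.1% lower. NAF1, an assembly factor of H/ACA particles, was at -0.42 and NOP10, a subunit of the same particles, at 0.08. With equal poly-A controls both medians were positive, 0.20 for the hosts and 0.23 for the proteins, and stayed below that of all genes.

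Genes tied to the handling of snoRNA host exons did not stand off the bulk. Of 13 factors of nonsense-mediated decay, which degrades spliced exons of such hosts, 6 were higher and 7 lower (median -0.05). SMG9 was the lowest, at -0.44 on the brighter and -0.46 on its other probe set, and UPF2 the highest at 0.11. Translation genes with the 5' pyrimidine start that GAS5 shares had 8 of 14 higher and a median of 0.02, from -0.16 for EIF3H to 0.18 for EIF4B. Another EIF4B probe set read -0.12.

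Genes beside SNHG1 and GAS5 on their chromosomes were lower on their brightest probe sets, relative to the bulk of genes. Beside SNHG1, STX5 read -0.44 at a dim level of 5.79. SLC3A2, the heavy chain of amino acid transporters, read -0.21, and WDR74, a ribosome assembly factor, -0.23 on its brightest probe set. Beside GAS5, ZBTB37 read -0.22 and CENPL, a centromere protein, -0.14 with its other probe set at -0.02. Beside SNHG12, 1 gene was higher and 2 were lower, and beside DANCR, USP46 read 0.15. Over all 26 neighbours of the 10 genes within 500 kb and above the threshold, 12 were higher and 13 lower.

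**Figure D3:**
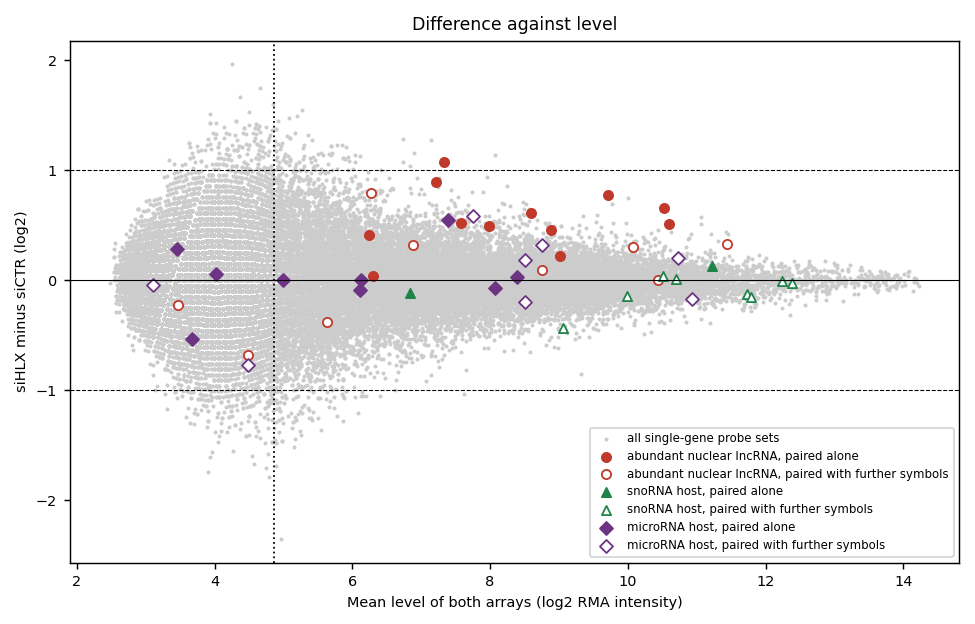
The siHLX minus siCTR difference (y axis, log2) against the mean level of both (x axis, log2 RMA intensity) for all 41091 single-gene probe sets (grey) and the probe sets of the 10 genes (coloured by class, filled when paired with that gene alone); 2-fold is marked by dashed lines and the level threshold by a dotted one. At levels of 10 and more, the MALAT1 readings lie above the central 95% of the grey points, which spans -0.24 to 0.23 there. The snoRNA hosts lie near 0 apart from 1 SNHG12 reading at -0.43.

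Among the microRNA hosts, VMP1 gave the largest differences above the threshold. VMP1 is a membrane protein of the endoplasmic reticulum needed for autophagy, and miR-21 lies at the 3' end of its gene. The probe set paired with VMP1 alone, 1569003_at, read 7.66 with siHLX and 7.11 with siCTR, a difference of 0.55 or 1.46-fold, and 1.25% of the probe sets near that level lay as far up.

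Probe sets paired with both VMP1 and MIR21 went both ways. 231697_s_at read 8.04 with siHLX and 7.46 with siCTR, a difference of 0.58, and 0.762% of the probe sets near its level lay as far up. 224917_at read 10.82 with siHLX and 10.62 with siCTR, a difference of 0.20. The brightest, 220990_s_at, was lower, with 10.84 with siHLX and 11.01 with siCTR. Thus 3 of the 4 VMP1 readings were higher with siHLX and the brightest was not, although it lay at 0.12 with equal poly-A controls. The annotation does not tell which of them also detect the primary transcript of miR-21.

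The genes around VMP1 on chromosome 17 shifted little on their brightest probe sets. Of 6 neighbours with a probe set above the threshold, 5 were higher and 1 lower on the brightest probe set, between -0.01 for TUBD1 and 0.24 for RNFT1. The other probe sets of TUBD1 read -0.09 and -0.41. CLTC, the clathrin heavy chain gene 10.7 kb from VMP1, read 12.50 with siHLX and 12.33 with siCTR. RPS6KB1, which encodes S6 kinase, read 10.05 with siHLX and 10.01 with siCTR. No neighbour reached the 0.55 of the probe set paired with VMP1 alone. The brighter probe sets paired with VMP1 and MIR21, 220990_s_at and 224917_at, read -0.17 and 0.20, and RNFT1 lay above both.

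Of 26 autophagy genes above the threshold, 16 were higher and 10 lower with siHLX, with a median of 0.055. Of all genes, 47.4% were higher and 50.1% lower. The autophagy median was 0.022 with the mean of all probe sets of each gene and 0.01 without _s_at and _x_at probe sets. GABARAPL1, a protein of the autophagosome membrane, was the highest at 0.80, though dim, with 5.84 with siHLX and 5.04 with siCTR. ATG7, an enzyme of its conjugation, was at 0.51 with other probe sets down to -0.28. MAP1LC3B, of the same protein family as GABARAPL1, was the lowest at -0.48, with 8.02 with siHLX and 8.50 with siCTR, and its other probe set read -0.13. ATG14 was at -0.23.

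MIR155HG, the host of the lymphoma microRNA miR-155, had 1 probe set, 229437_at, paired with MIR155 as well. It read 8.92 with siHLX and 8.60 with siCTR, a difference of 0.32 or 1.25-fold, and 3.89% of the probe sets near that level lay as far up. Its neighbour MRPL39, 10.5 kb away, read 10.98 with siHLX and 11.01 with siCTR. Another neighbour, JAM2, read 0.68, on a probe set at the threshold. GABPA read 0.24 on its brightest probe set and 0.10 on its other, and ATP5PF read -0.03.

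MIR17HG, the host of the miR-17-92 cluster, was slightly lower on its probe set paired with the cluster, 232291_at, which read 8.41 with siHLX and 8.61 with siCTR. The difference was -0.20, 13.5% of the probe sets near that level lay as far down, and with equal poly-A controls it was 0.09. The probe set paired with MIR17HG alone, 233636_at, read 4.05 with siHLX and 3.99 with siCTR, below the threshold.

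DLEU2, the host of miR-15a and miR-16 in the region of chromosome 13 often deleted in leukaemia, was level. Its brightest own probe set, 216870_x_at, read 8.41 with siHLX and 8.38 with siCTR, and 1556821_x_at read 8.04 with siHLX and 8.11 with siCTR. 1556820_a_at read 6.07 with siHLX and 6.16 with siCTR, and 216856_s_at (6.12) and 242854_x_at (5.0) were equal on both arrays. The mean over these 5 was -0.03 (SD 0.05).

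The remaining DLEU2 readings were joint or dim. 215629_s_at, paired also with MIR15A and DLEU2L, a related gene, read 8.60 with siHLX and 8.42 with siCTR. The 4 probe sets below the threshold ran from -0.77 for 1563229_at, with 4.10 with siHLX and 4.87 with siCTR, to 0.28 for 1564443_at, with 3.59 with siHLX and 3.31 with siCTR. Between them, 1569600_at read 3.41 with siHLX and 3.94 with siCTR, and 239936_at read 3.09 with siHLX and 3.13 with siCTR. Both 1563229_at and 239936_at are paired with MIR15A as well. Of the genes that overlap DLEU2, DLEU1 read 0.05 and TRIM13 0.24 on the brightest probe set, with other TRIM13 probe sets down to -0.28.

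Genes reported as targets of these microRNAs, from lists drawn up from general knowledge, lay near the bulk of genes. Of 8 targets of miR-21 above the threshold, 3 were higher and 5 lower (median -0.05), from TIMP3 at -0.50, dim at 5.51 with siHLX and 6.01 with siCTR, to the receptor gene TGFBR2 at 0.29. Of 15 targets of miR-155, 8 were higher (median 0.01). Among them CSF1R was the highest at 0.44, a myeloid gene at a level of 6.01. BACH1, a repressor of haem genes, followed at 0.23. FOXO3 was at -0.25 with another probe set at 0.20, and IKBKE, dim at a level of 5.85, at -0.18 with another at 0.24.

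Targets of the miR-17-92 cluster had 6 of 15 higher (median -0.06). TGFBR2, which is on this list too, and the retinoblastoma relative RBL2 at 0.19 were the highest, CYLD was at -0.42 with probe sets from -0.83 to 0.41, and E2F1 read -0.33 and -0.30 on its 2 probe sets. Targets of miR-15a and miR-16 had 3 of 12 higher and 9 lower (median -0.085). BCL2, the anti-apoptotic gene, was the highest at 0.14, with probe sets from -0.20 to 0.69, and SIAH1 the lowest at -0.43 with another probe set at 0.01. Of all genes above the threshold, 47.4% were higher and 50.1% lower. In all 4 target lists 0 genes passed 2-fold, where 0.841% of all genes above the threshold did so in either direction.

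Other noncoding RNAs and hosts were divided evenly. Of 18 further long noncoding RNAs, 9 were higher and 9 lower (median -0.005). PRKCQ-AS1 was at 0.28 with probe sets from -0.10 to 0.45, FTX at 0.19, MEG3 at -0.37 and RPPH1, the RNA of ribonuclease P, at -0.88 with 5.87 with siHLX and 6.75 with siCTR. Of 23 further microRNA hosts, 12 were higher and 11 lower (median 0.01). MIR210HG, the host of the low-oxygen microRNA miR-210, was dim, with 6.23 with siHLX and 5.08 with siCTR. Its difference of 1.15 was the only one past 2-fold in any of the lists when each gene was read by its brightest probe set. Of all genes above the threshold, 0.841% passed 2-fold in either direction. CTDSPL was at 0.41 with its other probe set at 0.0, SREBF2 at -0.27 with probe sets from -0.39 to 0.32, and MIR4435-2HG at -0.25.

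**Figure D4:**
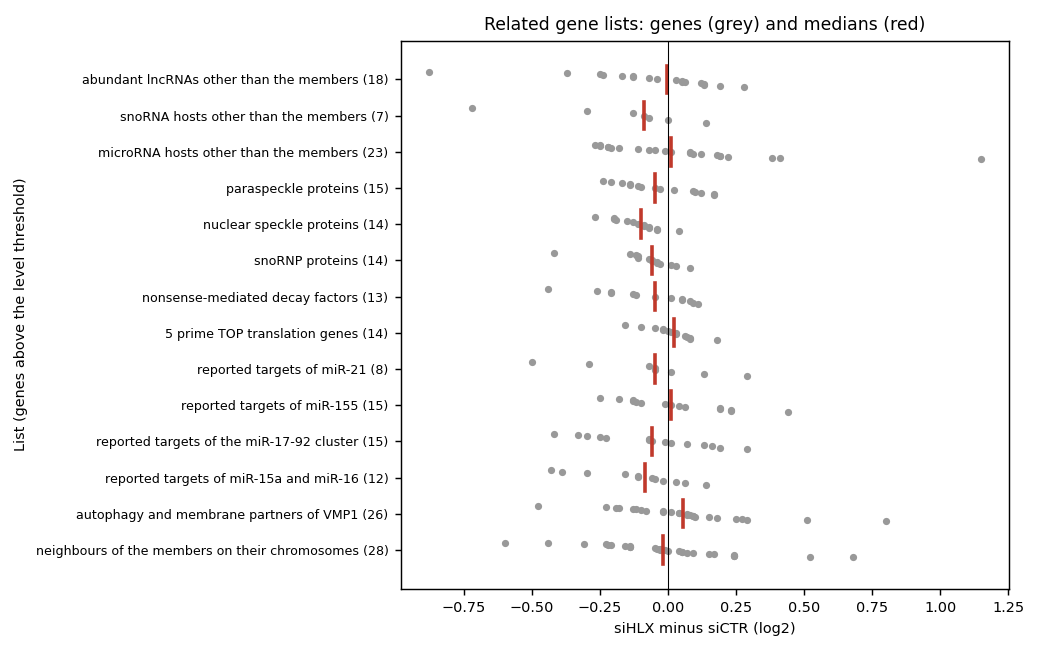
The siHLX minus siCTR difference (x axis, log2) for the genes above the level threshold (grey points) in 14 related lists (y axis, number of genes in parentheses), taking the brightest probe set of each gene, with the list median in red. Medians lie between -0.10 for nuclear speckle proteins and 0.055 for autophagy genes. MIR210HG at 1.15, a dim reading, is the only gene past 2-fold, where 0.841% of all genes above the threshold are.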

How the data were processed

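Biotin-labelled cRNA from total RNA of 2 SU-DHL-1 samples, 1 per siRNA, was hybridised to Affymetrix HG-U133 Plus 2.0 arrays. The authors deposited log2 intensities with 2 decimals, 1 per probe set, made by RMA background correction and quantile normalisation with limma and affy (version of either: not given in the sources used here). A ratio to the sample mean, which the methods mention, was not seen in the values. Both arrays are equally bright after quantile normalisation, which hides any shift common to most genes.

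Groups were taken from the treatment labels. Control probe sets were left out, and of the other 54613 the platform annotation pairs 41091 with 1 gene, 1801 with several and 11721 with none. By Entrez identifier 41037 of the 41091 were found in RefSeq (GRCh38.p14), and 0 symbols changed. Distances between genes are from RefSeq, and no build was named for the array. Differences, counts and medians were computed with Python 3.11.15, numpy 2.4.6 and pandas 2.3.3. Each gene was represented by the brightest of its probe sets over both arrays, if at or above 4.865. Levels of different probe sets were not compared as amounts of RNA. The share of probe sets of other genes within 0.5 log2 units that lay as far in the same direction is a description. No test was possible with 1 array per group, and steps were tested on simulated data. Alternatives were median centring, lowess (fraction 0.2), quantile normalisation, equal poly-A controls, other probe set choices, thresholds and fold limits.

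Every probe set of the 10 genes is named, and of each list the highest and lowest gene (2 of each for 15 or more genes) and neighbours on the chromosome, of which the text gives examples. Members and lists were chosen with earlier results of these data known. Genes of the lists that no probe set reads alone were not analysed here.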

Additional observations from a re-analysis of the deposited data

How the results depend on the processing

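Median centring and quantile normalisation changed no sign. Scaling to equal poly-A controls raised the MALAT1 difference to 0.80, the median over its probe sets to 0.80, the median of the 5 genes to 0.42 and the probe sets past 2-fold to 3, adding the same amount to all genes. Using no _s_at or _x_at probe sets left 1 MALAT1 probe set, at 1.07, and 3 of the 15 higher probe sets. With a 1.5-fold limit 5 probe sets passed. With no level threshold MALAT1 ranked 5 among genes with at least 5 probe sets, and without _s_at and _x_at probe sets it had too few for a rank. The probe sets of VMP1 paired with MIR21 changed sign with the mean of all probe sets, at 0.20. No paired analysis was possible because each group has 1 array. With equal poly-A controls the list medians below 0 lay above 0, and the medians of the microRNA targets, decay factors and other noncoding RNAs lay so near 0 that other thresholds or probe set choices turned some of them. Dim probe sets limit most list members: the SD of differences was 0.43 between the threshold and a level of 6 and 0.12 at 10 and above.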
